A study of Mus musculus with 31 samples.

Results

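Branched-chain ketoacid dehydrogenase (BCKDH) is the mitochondrial complex that commits leucine, isoleucine and valine to oxidation. The genes described here were chosen by name: the subunits Bckdha, Bckdhb, Dbt and Dld, the kinase Bckdk and the phosphatase Ppm1k that act on the complex, and the branched-chain transaminases Bcat1 and Bcat2. The array design carried 15 probes for these 8 genes, and 11 probes of 7 genes were among the 36059 probes kept, which stand for 23968 gene names. All 4 probes of Bcat1, the cytosolic transaminase, failed the filter, with a spot that passed every quality flag on at most 1 of 31 arrays, so Bcat1 has no values below.

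Liver RNA came from 31 C57BL6/J male mice, all fasted for 24 hours and then refed for 18 hours with food and with 20% glucose in the drinking water. ChREBP, encoded by Mlxipl, is the glucose-responsive transcription factor of the liver, made as an α isoform and a shorter β isoform from separate first exons. The groups were 8 ChREBPβ-deficient mice (ChREBPβ KO), in which gene editing had removed the β-specific exon, 8 WT littermates of that line, 7 Mlxipl-null mice that lack α and β (total ChREBP-KO) and 8 WT littermates of that second line. Replicate 3 of the total ChREBP-KO group was not analysed here. Both deletions are whole-body, ages are not given in the sources used here, and each line is compared with its own WT littermates. In whole liver, fewer cells of a type and less RNA per cell cannot be told apart.

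Transamination by BCAT2 or BCAT1 turns branched-chain amino acids into ketoacids, and BCKDH then decarboxylates these in an irreversible step. The complex has a decarboxylase (E1, from Bckdha and Bckdhb), a core acyltransferase (E2, from Dbt) and a dihydrolipoamide dehydrogenase (E3, from Dld) that it shares with the pyruvate and 2-oxoglutarate dehydrogenases. BCKDK phosphorylates the E1α subunit and switches the complex off, and PPM1K (also PP2Cm) removes the phosphate and switches it on. Hepatocytes have high BCKDH activity and little BCAT2, so the liver receives much of its ketoacid from muscle. Arrays measure mRNA, not phosphorylation or flux.

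Probes behind the kinase and phosphatase results are shown first by their opening 30 bases, 5′ to 3′, as read from the array annotation, because the Ppm1k probes do not behave alike. Capitals mark bases that lie in a run of 20 bases also carried, on either strand, by a probe of another gene.
Bckdk A_51_P404413: gtcgggaggaaagcttcagaatctaatggt
Ppm1k A_51_P265219: ttcattatgagaatggcttaagcaggaata
Ppm1k A_55_P1968606: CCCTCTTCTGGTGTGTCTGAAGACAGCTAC

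On mouse build mm9 the full Bckdk probe lies at chr7:135051800-135051859 on the plus strand, at base 1478 of the Bckdk transcript. Of the Ppm1k probes, those shown lie on the minus strand at chr6:57456890-57456949 (A_51_P265219, transcript base 5106) and chr6:57458598-57458657 (A_55_P1968606, transcript base 3398). A_55_P1968606 shared such runs with 21 probes of other genes, over 40 of its 60 bases, and all 30 bases printed above were found in 2 of them. Its annotation also lists transcripts of Synrg and Golm2. None of the other 14 probes on the design shared a run of 20 bases with a probe of another gene. A_55_P1968606 was therefore not used as the single value for Ppm1k in comparisons across genes, and A_51_P265219 was taken. The third probe, A_66_P133398, also shared no such run, was dimmer and had a smaller difference in total ChREBP-KO livers (log2 0.81 against 1.59). The choice was made after the values and the annotation had been seen, and all 3 probes are reported.

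The upstream regions of the kinase and the phosphatase are shown because their mRNAs moved in opposite directions in the total ChREBP-KO liver. They are 250 bases before the RefSeq start on GRCm38.p6, 5′ to 3′ on the gene's strand, with the letters CCAAT or their complement in capitals.
Bckdk, chr7:127903823-127904072, plus strand: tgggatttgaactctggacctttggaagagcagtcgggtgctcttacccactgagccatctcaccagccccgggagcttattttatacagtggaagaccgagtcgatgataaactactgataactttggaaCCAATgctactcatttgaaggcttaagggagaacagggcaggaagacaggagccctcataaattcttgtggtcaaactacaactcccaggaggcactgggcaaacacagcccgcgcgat
Ppm1k, chr6:57535488-57535737, minus strand: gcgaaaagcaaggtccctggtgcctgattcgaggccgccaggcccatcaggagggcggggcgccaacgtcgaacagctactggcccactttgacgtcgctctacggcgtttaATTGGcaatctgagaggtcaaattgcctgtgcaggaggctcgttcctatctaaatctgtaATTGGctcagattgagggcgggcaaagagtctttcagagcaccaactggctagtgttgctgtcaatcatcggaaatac
CCAAT was found 1 time in the Bckdk window and 2 times in the Ppm1k window, searched on both strands over 250 bases before to 50 bases after the start, and 37.4% of all 32851 promoters of that length hold it. The E-box CACGTG, the core of sequences bound by ChREBP with its partner MLX, was in neither window, and 7.15% of all promoters hold it. The carbohydrate response element consensus was in neither window, and 0.0274% of all promoters hold it. RefSeq promoters were given for 7 of the 8 genes, all but Dbt, and none of the 7 held CACGTG or the consensus.

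The hepatocyte list (8 genes, Alb, Apoa1 and Apob among them) had mean log2 signals of 16.2 to 16.8 in all arrays. Markers of other tissues were high on 6 arrays of the total line: skeletal muscle and adipocyte genes on total ChREBP-KO replicate 6 (muscle list mean 9.66 against a group median of 6.09), cholangiocyte genes on replicate 5 (8.85 against 6.82), and exocrine pancreas or adipocyte genes on WT replicates 2, 5, 7 and 8 (pancreas list up to 11.3 against a median of 7.98). The adipocyte list also had higher medians in the ChREBPβ line, 7.37 in WT and 7.74 in ChREBPβ KO mice. Its medians were 6.61 in total-line WT and 6.94 in total ChREBP-KO mice, and no ChREBPβ-line array was left out for it. Values of the called members without these 6 arrays of the total line are given beside their results, and the part of the other tissues in these results was not tested. Their removal left WT replicates 1, 3, 4 and 6 of the total line, and replicates 1, 3 and 4 were scanned on day 1. The effect of leaving these arrays out cannot be fully told apart from that of scan day. The brightest Mlxipl probe was lower in total ChREBP-KO than in WT livers (log2 difference −1.16 ± 0.07 SE, limma adjusted p = 8.054e-13) and lower in ChREBPβ KO livers than in theirs (−0.46 ± 0.07 SE, adjusted p = 0.01516), with no overlap of groups in either line. Of the other two Mlxipl probes, A_55_P2728555 was called in the total line (−0.59 ± 0.15 SE, adjusted p = 0.003131) and not in the ChREBPβ line (−0.46 ± 0.15 SE, adjusted p = 0.9086). A_55_P2045158 was called in neither (−0.05 ± 0.06 SE, adjusted p = 0.6034, and −0.06 ± 0.06 SE, adjusted p = 0.9998).

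In livers that lacked both ChREBP isoforms the kinase mRNA was lower and the phosphatase mRNA higher than in WT littermates, while the subunit mRNAs were higher by smaller amounts or did not pass the test. Of the 11 probes, 6 were called higher and 1 lower at an adjusted p under 0.05 in a limma fit over all probes. In the same comparison 29.1% of all 36059 probes were called, 14.5% higher and 14.6% lower. The median log2 difference of the 11 probes was 0.21, against 0.01 over all probes. Subunit and transaminase differences were mostly below 0.4 on the log2 scale, and those of the phosphatase reached 1.59. A shift of similar size separated the WT groups. For total-line WT minus ChREBPβ-line WT mice the median of the 11 probes was −0.18, against 0.01 over all probes, and 2 of the 11 were above 0.

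**Figure D1:**
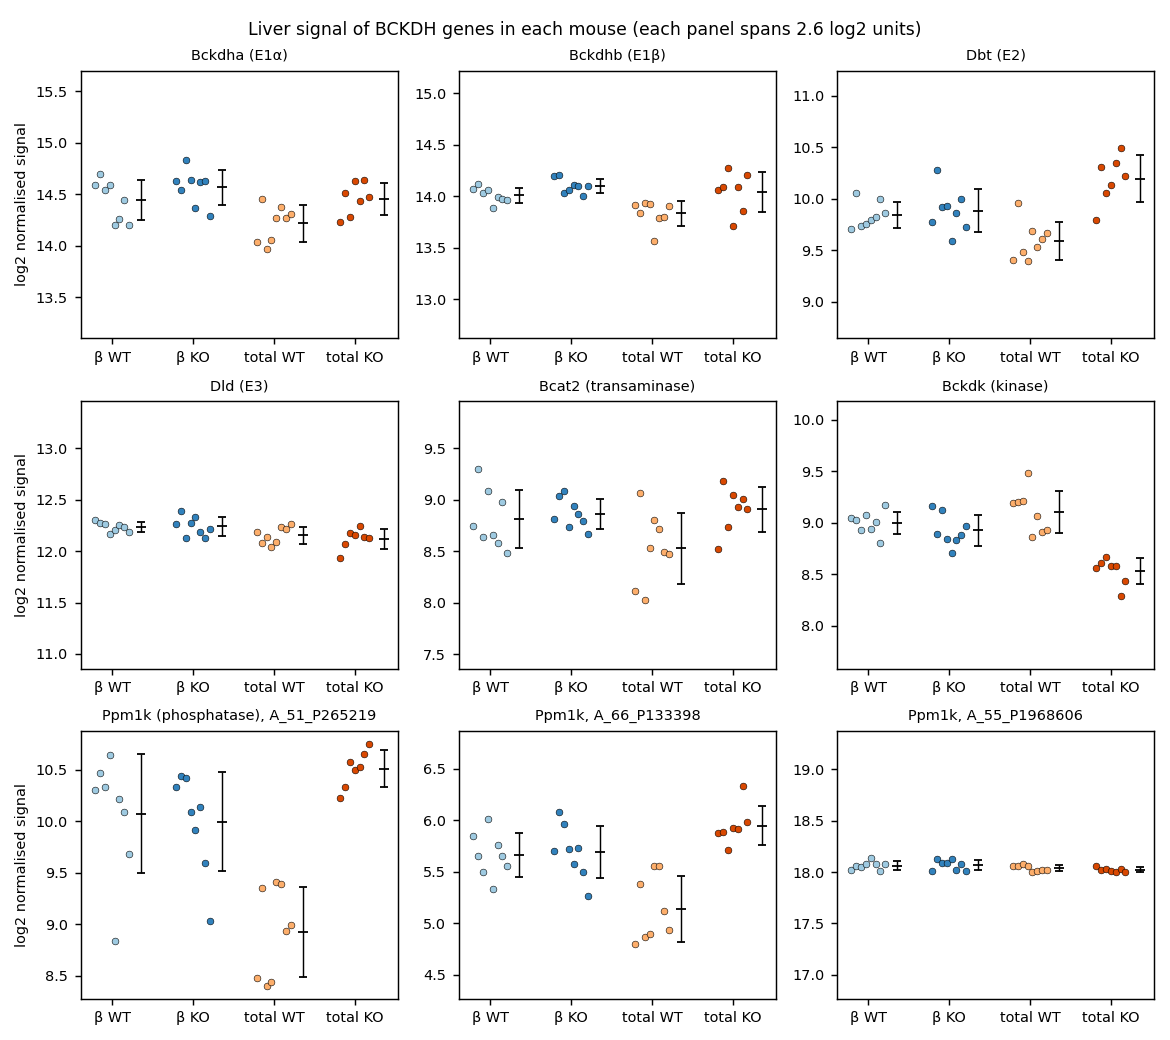
Log2 normalised signal of 9 probes in each mouse, with 4 genotype groups on the x axis, 1 point per mouse, and the group mean ± SD as a bar beside the points. All panels span 2.6 log2 units. The 7 total ChREBP-KO mice lie below their 8 WT littermates for Bckdk and above them for Ppm1k A_51_P265219 and A_66_P133398.

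Bckdk, which encodes the kinase that inactivates the complex, had log2 signals of 8.29 to 8.67 in the 7 total ChREBP-KO mice, with a median of 8.58, while the 8 WT littermates had 8.86 to 9.48, with a median of 9.13. Every KO mouse was below every WT littermate, a separation downward seen for 4.14% of all probes. The log2 difference was −0.57 (95% interval −0.74 to −0.41), a signal 0.671 times that of WT littermates (adjusted p = 1.556e-06). The 16 mice of the ChREBPβ line ranged from 8.71 to 9.17, narrowly above the highest KO mouse at 8.67. The share of all probes set apart from both lines in this way was not counted. Of all probes, 6.72% changed by at least as much in either direction. The change fell short of a 1.5-fold difference. Leaving out the 6 arrays with markers of other tissues gave −0.72 (adjusted p = 4.812e-06), and each scan day alone gave −0.67 (adjusted p = 0.0001487) and −0.51 (adjusted p = 0.005286). The spot was well above background on all 31 arrays but was not found by the scanner software on 2 ChREBPβ KO arrays.

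Ppm1k, which encodes the phosphatase that reactivates the complex, showed the largest difference among the 11 probes. On A_51_P265219 the total ChREBP-KO mice had log2 signals of 10.23 to 10.75, with a median of 10.53, against 8.40 to 9.41 and a median of 8.96 in WT littermates. No KO mouse overlapped a WT littermate, as for 3.26% of all probes in the upward direction. The signal was 3.003-fold higher in KO livers, a log2 difference of 1.59 (95% interval 1.13 to 2.04, adjusted p = 1.948e-06), and 0.663% of all probes changed by at least as much. A_66_P133398, another probe of the gene, gave 5.71 to 6.34 in KO mice (median 5.92) and 4.795 to 5.56 in WT littermates (median 5.03). Again the groups did not overlap, and the log2 difference was 0.81 (95% interval 0.56 to 1.06, adjusted p = 9.193e-06). Without the 6 arrays with markers of other tissues the differences were 1.83 (adjusted p = 7.053e-05) and 0.93 (adjusted p = 0.0001647).

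A_66_P133398 was a dim probe, with unnormalised median signals of 26 to 78, and its difference ranged from 0.44 to 1.45 over the other scalings, filters and tests tried. Its spot was well above background on all 31 arrays and was found by the scanner software on 15. These included 3 of 7 total ChREBP-KO and 2 of 8 total-line WT arrays. The probe passed the filter only through the ChREBPβ-line WT mice, where 6 of 8 arrays met the flags. The third Ppm1k probe, A_55_P1968606, whose opening bases occur in probes of other genes, lay at 18.0 to 18.1 in all 4 groups. Its log2 difference in total ChREBP-KO livers was −0.02 (95% interval −0.08 to 0.05, adjusted p = 0.7469). Scanner flags marked none of its spots as saturated, although the unnormalised signals reached 312181.

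The size of the Ppm1k difference depended on which WT mice stood as controls. In the WT littermates of the total line Ppm1k was low: on A_51_P265219 they ranged from 8.40 to 9.41, and the WT littermates of the ChREBPβ line from 8.84 to 10.65 (median 10.26). Between the WT groups the log2 difference was −1.15 ± 0.21 SE (adjusted p = 0.0003562) on A_51_P265219 and −0.53 ± 0.12 SE (adjusted p = 0.002835) on A_66_P133398, the total line being lower. Against the WT mice of the ChREBPβ line, a comparison added after the WT difference was seen, total ChREBP-KO livers differed by 0.44 on A_51_P265219 (adjusted p = 0.1401) and by 0.28 on A_66_P133398 (adjusted p = 0.08565), neither past the threshold. Of the 16 ChREBPβ-line mice, 7 lay inside the range of the KO mice on A_51_P265219 and 2 lay below the highest total-line WT mouse. Bckdk did not follow this pattern of controls. Its WT groups differed by 0.11 ± 0.08 SE (adjusted p = 0.3627), and total ChREBP-KO livers were lower than ChREBPβ-line WT livers by a log2 difference of −0.47 (adjusted p = 3.311e-05).

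The WT groups come from separate lines, so line and any difference in breeding or handling cannot be told apart. The mean log2 signal of a list of 14 circadian clock genes was 8.94 to 9.32 in total-line WT mice, 9.55 to 9.84 in total ChREBP-KO mice, 8.78 to 9.91 in ChREBPβ-line WT mice and 9.09 to 9.87 in ChREBPβ KO mice. The medians were 9.17 in total-line WT, 9.66 in total ChREBP-KO, 9.36 in ChREBPβ-line WT and 9.705 in ChREBPβ KO mice. The range of the ChREBPβ-line WT mice held that of the total-line WT mice, but their median was above the highest total-line WT mouse. Of the 14 genes 8 rose, 3 fell (Arntl, Npas2 and Cry1) and 3 were not called in the total ChREBP-KO livers, beside 33.9% of all gene names with at least 1 called probe. By brightest probe, 2 were called lower and 1 higher in the total-line WT than in the ChREBPβ-line WT mice. Across the 31 arrays, as deviations from group means, Ppm1k had a Pearson r of 0.56 with the list mean, Bckdha 0.51 and Bckdk −0.036. The other members lay between −0.16 (Dbt) and 0.27 (Bckdhb). These values are given as a description of arrays that share normalization. The part of the clock genes in the Ppm1k and Bckdha differences was not tested.

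**Figure D2:**
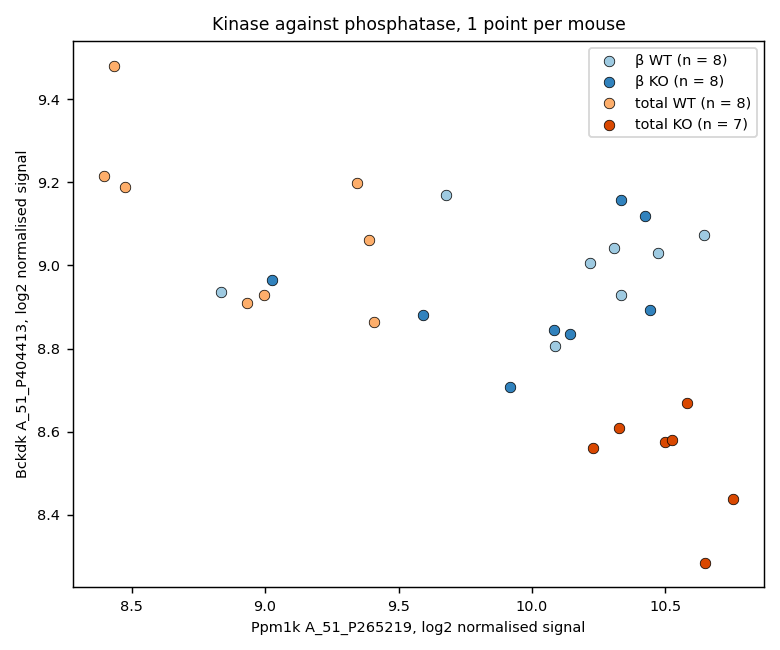
Bckdk log2 normalised signal (y axis) against Ppm1k A_51_P265219 log2 normalised signal (x axis), 1 point per mouse, coloured by group. The 7 total ChREBP-KO mice sit at Bckdk values up to 8.67 with Ppm1k values from 10.23. ChREBPβ-line mice share that Ppm1k range but have Bckdk values from 8.71.

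Per mouse, the log2 signal of Bckdk minus that of Ppm1k A_51_P265219, relative to the mean of the WT littermates, was −2.16 ± 0.27 (SD, n = 7) in total ChREBP-KO livers, with a range of −2.55 to −1.85. In their WT littermates it ranged from −0.73 to 0.86. The lack of overlap follows from the opposite separations of Bckdk and Ppm1k given above and is no further result. The size rested on the control mice: relative to the mean of the ChREBPβ-line WT mice, a comparison added after the values were seen, the same quantity was −0.90 ± 0.27 (SD, n = 7) in total ChREBP-KO livers, with a range of −1.29 to −0.60, against −0.50 to 1.17 in those WT mice. In ChREBPβ KO livers the same quantity was 0.003 ± 0.47 (SD, n = 8) and ranged from −0.48 to 1.01, within the spread of WT littermates (−0.50 to 1.17).

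Within groups the kinase and the phosphatase did not vary together, with a Pearson r of −0.15 between their deviations from group means over 31 arrays. Ppm1k varied most closely with Bckdha among the members (r = 0.73). Among 18804 other named genes the deviations most like those of Ppm1k belonged to Clcn2 (r = 0.90), a chloride channel, Casp6 (r = 0.90), a caspase, 2310001H17Rik (r = 0.89), AW011956 (r = 0.87) and Slc25a48 (r = 0.86), a mitochondrial carrier. For Bckdk they belonged to Gm28321, Zfp93, 2900005J15Rik, Lcmt1 and Dixdc1, with r from 0.66 to 0.72. For the shared-sequence probe A_55_P1968606 they included Medag (r = 0.71), Eif6 (r = 0.71), 1810030O07Rik (r = 0.70) and Ets2 (r = 0.69), none of them among the genes closest to A_51_P265219. Over the 18804 genes the 99th percentile of r was 0.691 for Ppm1k A_51_P265219, 0.482 for Bckdk and 0.49 for A_55_P1968606.

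Dbt, the E2 core to which the other subunits and the kinase bind, rose in the total ChREBP-KO livers. Its log2 signals were 9.79 to 10.49 in KO mice (median 10.22) and 9.40 to 9.96 in WT littermates (median 9.57), so the groups overlapped at their edges. The log2 difference was 0.60 (95% interval 0.41 to 0.79, adjusted p = 1.335e-05), a 1.52-fold higher signal. Without the 6 arrays with other-tissue markers it was 0.72 (adjusted p = 8.702e-05), and against the WT mice of the ChREBPβ line it was 0.35 (adjusted p = 0.004933).

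The E1 subunits changed less. Bckdha, which carries the phosphorylated serines, had log2 signals of 14.23 to 14.64 in KO mice (median 14.47) and 13.97 to 14.45 in WT littermates (median 14.27). These groups overlapped over much of their range, and the difference of 0.24 ± 0.09 SE only just passed the test (adjusted p = 0.04366). It missed the threshold when any of 9 mice was left out (KO replicates 2, 5, 6, 7 or 8, or WT replicates 1, 3, 4 or 7), with values from 0.20 to 0.28 over all 31 omissions. The call was lost under 8 of 17 other settings and without the 6 arrays with other-tissue markers (0.32, adjusted p = 0.05599), and against the WT mice of the ChREBPβ line the difference was 0.014 (adjusted p = 0.9301).

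Bckdhb, the other E1 subunit, was called on 1 of its 2 probes. On A_55_P2115235 the KO mice ranged from 13.71 to 14.28 (median 14.09) and the WT littermates from 13.56 to 13.94 (median 13.87), which overlapped. The difference was 0.21 ± 0.07 SE (adjusted p = 0.01536), and 0.030 (adjusted p = 0.7693) against the WT mice of the ChREBPβ line. The call was lost under 7 of 17 other settings (with slide as a block, 0.18, adjusted p = 0.1211). Without the 6 arrays with other-tissue markers the difference was 0.21 (adjusted p = 0.0353). A_51_P102782 had a similar difference of 0.18 ± 0.08 SE that did not pass (adjusted p = 0.1031). It passed when total ChREBP-KO replicate 5 was left out (0.23, adjusted p = 0.03334).

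Dld, the E3 subunit shared with other dehydrogenases, ranged from 11.93 to 12.25 in KO mice (median 12.14) and from 12.04 to 12.26 in WT littermates (median 12.16). The ranges overlapped, the KO mice reaching lower than the lowest WT littermate. The difference of −0.04 had a 95% interval of −0.13 to 0.06 (adjusted p = 0.6141).

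Bcat2, the mitochondrial transaminase, ranged on A_55_P1960167 from 8.53 to 9.18 in KO mice (median 8.93) and from 8.03 to 9.07 in WT littermates (median 8.51). Its groups overlapped broadly, with a difference of 0.38 ± 0.13 SE (adjusted p = 0.02601). The spot was well above background on all 31 arrays but was found by the scanner software on 23, including 5 of 7 total ChREBP-KO and 7 of 8 total-line WT arrays. Leaving out KO replicate 2 or 5, or WT replicate 1 or 3, gave an adjusted p above the threshold, of up to 0.06844, and 6 of 16 other settings lost the call (with slide as a block, 0.23, adjusted p = 0.1527). Against the WT mice of the ChREBPβ line the difference was 0.096 (adjusted p = 0.6173), and without the 6 arrays with other-tissue markers 0.53 (adjusted p = 0.01685). The dimmer probe A_52_P393781, with unnormalised signals of 50 to 93, gave 0.11 ± 0.07 SE (adjusted p = 0.2621).

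**Figure D3:**
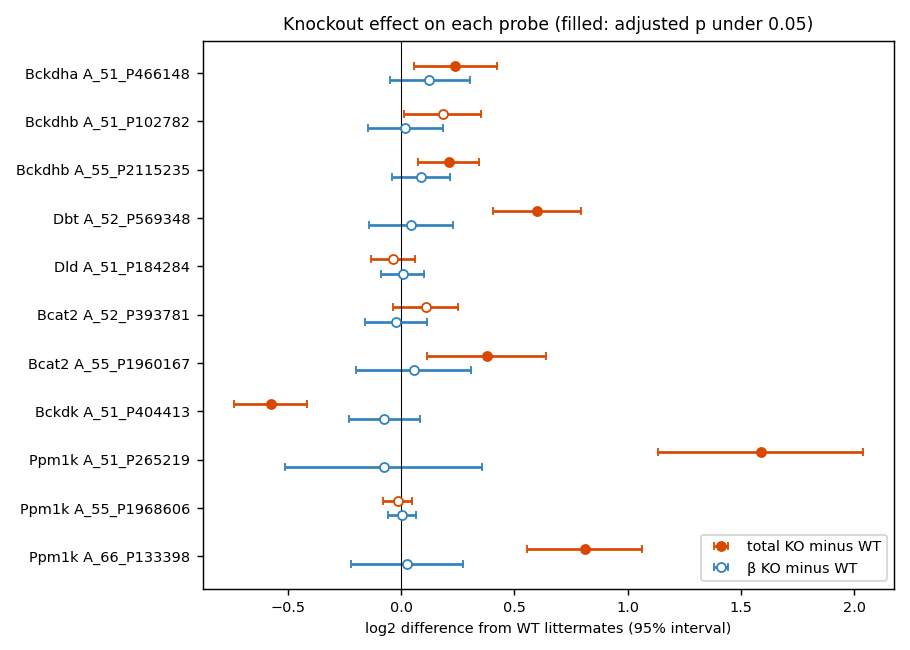
Log2 difference from WT littermates (x axis) of each of the 11 probes (y axis) in the total ChREBP-KO and the ChREBPβ line, with 95% intervals. Filled points had an adjusted p under 0.05. The ChREBPβ differences lie between −0.08 and 0.13 and none is filled.

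Loss of the β isoform alone gave no call among the 11 probes in the limma fit, where 0.00277% of all probes, a single Mlxipl probe, were called. None of the 11 probes had an unadjusted p under 0.05, against 4.98% of all probes, and the exact Mann-Whitney test also called none. Bckdk ranged from 8.71 to 9.16 in ChREBPβ KO mice (median 8.89) and from 8.81 to 9.17 in WT littermates (median 9.02), a difference of −0.07 with a 95% interval of −0.23 to 0.08. Ppm1k A_51_P265219 ranged from 9.03 to 10.44 (median 10.11) and from 8.84 to 10.65 (median 10.26), a difference of −0.08 with an interval of −0.51 to 0.36. For Dbt the KO mice ranged from 9.59 to 10.28 and the WT littermates from 9.71 to 10.06, a difference of 0.04 with an interval of −0.14 to 0.23. The intervals leave out changes as large as those of the total ChREBP-KO livers for each of these 3 genes, although the Ppm1k interval is wide.

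Testing the difference between the knockout effects directly, 4 of the 11 probes were called, beside 15.1% of all probes. The total effect was above the ChREBPβ effect for Ppm1k on A_51_P265219 (1.66 ± 0.31 SE, adjusted p = 0.0002863) and on A_66_P133398 (0.78 ± 0.17 SE, adjusted p = 0.001961). It was also above it for Dbt (0.56 ± 0.13 SE, adjusted p = 0.003661). On A_51_P265219 the group means were 10.51 in total ChREBP-KO, 9.995 in ChREBPβ KO, 8.92 in total-line WT and 10.07 in ChREBPβ-line WT mice. The value for this probe therefore also holds the low level of the total-line WT mice. Bckdk fell more in the total line (−0.50 ± 0.11 SE, adjusted p = 0.001801). For Bckdha, Bckdhb and Bcat2, called in the total line, the difference between lines did not pass the test (adjusted p from 0.2463 to 0.6077). Between the WT groups 3 of the 11 probes were called, all lower in the total line, beside 8.92% of all probes lower: both Ppm1k probes above and Bckdhb A_55_P2115235 (−0.18 ± 0.06 SE, adjusted p = 0.04832). The Bckdhb call was lost under 9 of 16 other settings (with slide as a fixed block, adjusted p = 0.2915), in 22 of 31 fits that left out 1 array, and without the 6 arrays with other-tissue markers (−0.12, adjusted p = 0.2352). Without those 6 arrays Dbt (−0.39, adjusted p = 0.02246), Bckdha (−0.33, adjusted p = 0.04624) and Bcat2 A_55_P1960167 (−0.46, adjusted p = 0.03671) were called lower in the total-line WT mice.

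Genes that act after BCKDH were mostly higher in total ChREBP-KO livers. Of 18 genes of the later steps in the table, 12 rose on at least 1 probe, 2 fell and 4 were not called, beside 33.9% of all gene names with a called probe. The median log2 difference of the brightest probes was 0.17, against 0.01 over all probes. Here too the control mice mattered: 9 of the 18 brightest probes were called lower in the total-line WT than in the ChREBPβ-line WT mice and 0 higher, beside 8.92% of all probes lower. The median of the list's mean log2 signal per mouse was 12.69 in total-line WT, 12.84 in total ChREBP-KO, 12.85 in ChREBPβ-line WT and 12.97 in ChREBPβ KO mice. Ivd, isovaleryl-CoA dehydrogenase of the leucine branch, rose by 0.77 ± 0.09 SE (adjusted p = 2.076e-07), from 12.05 to 12.90 in WT littermates to 12.96 to 13.38 in KO mice with no overlap. Such an upward separation was seen for 3.26% of all probes. Abat, the GABA transaminase that also handles a product of valine, rose by 0.60 ± 0.12 SE (adjusted p = 0.0002066). Hsd17b10 (0.45 ± 0.10 SE, adjusted p = 0.001073) and Acadsb (0.42 ± 0.08 SE, adjusted p = 9.864e-05), enzymes of the isoleucine branch, rose too. Hibch, of the valine branch, fell by 0.23 ± 0.05 SE (adjusted p = 0.001227) and Pcca, a propionyl-CoA carboxylase subunit, fell by 0.35 ± 0.07 SE (adjusted p = 0.0004376). These last 2 genes are the whole of those called lower. None of the 18 was called in the ChREBPβ line by limma, where the brightest probes of 4 genes, Hibadh, Aldh6a1 and Echs1 among them, had an unadjusted p under 0.05, beside 4.98% of all probes.

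The pyruvate, 2-oxoglutarate and glycine complexes, which are built or regulated like BCKDH, were split. Of 16 genes, 5 rose, 5 fell and 6 were not called, beside 33.9% of all gene names with a called probe, and the median of the brightest probes was −0.03. Between the WT groups 2 of the 16 brightest probes were called lower and 2 higher in the total line, beside 8.92% of all probes lower. Pdk1, a kinase that inactivates pyruvate dehydrogenase, was at 9.91 to 10.32 in KO mice (median 10.09) and 11.14 to 12.90 in WT littermates (median 12.01). No KO mouse came near the lowest WT littermate, with a difference of −1.90 ± 0.21 SE (adjusted p = 2.586e-08). KO mice lay wholly below WT littermates for 4.14% of all probes. Pdhb, the pyruvate dehydrogenase E1β subunit, fell by 1.49 ± 0.16 SE (adjusted p = 1.398e-08). Pdk2, another such kinase, rose by 0.47 ± 0.11 SE (adjusted p = 0.002256), and Gldc, of the glycine cleavage system, fell by 0.45 ± 0.13 SE (adjusted p = 0.00701). No gene of the 16 was called in the ChREBPβ line by limma, and the brightest probes of 2 (Pdk3 and Gcsh) had an unadjusted p under 0.05, beside 4.98% of all probes.

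Among 6 transporter genes, 3 rose on at least 1 probe, 1 fell and 2 were not called in total ChREBP-KO livers, beside 33.9% of all gene names with a called probe. The number called dropped from 4 to 2 under 6 of 17 other settings. Slc25a44, the mitochondrial carrier that brings branched-chain amino acids into the matrix, was at 8.51 to 8.80 in KO mice (median 8.66) and 9.79 to 10.44 in WT littermates (median 10.19). The groups were far apart, and the difference was −1.49 ± 0.10 SE (adjusted p = 3.582e-12), the signal being 0.357 times that of WT. Groups without overlap in the downward direction were seen for 4.14% of all probes. The plasma membrane carriers Slc43a1 (0.67 ± 0.15 SE, adjusted p = 0.0007818) and Slc7a5 (0.21 ± 0.08 SE, adjusted p = 0.04431) rose. In ChREBPβ KO livers Slc25a44 differed by 0.08 ± 0.10 SE (adjusted p = 0.9998).

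**Figure D4:**
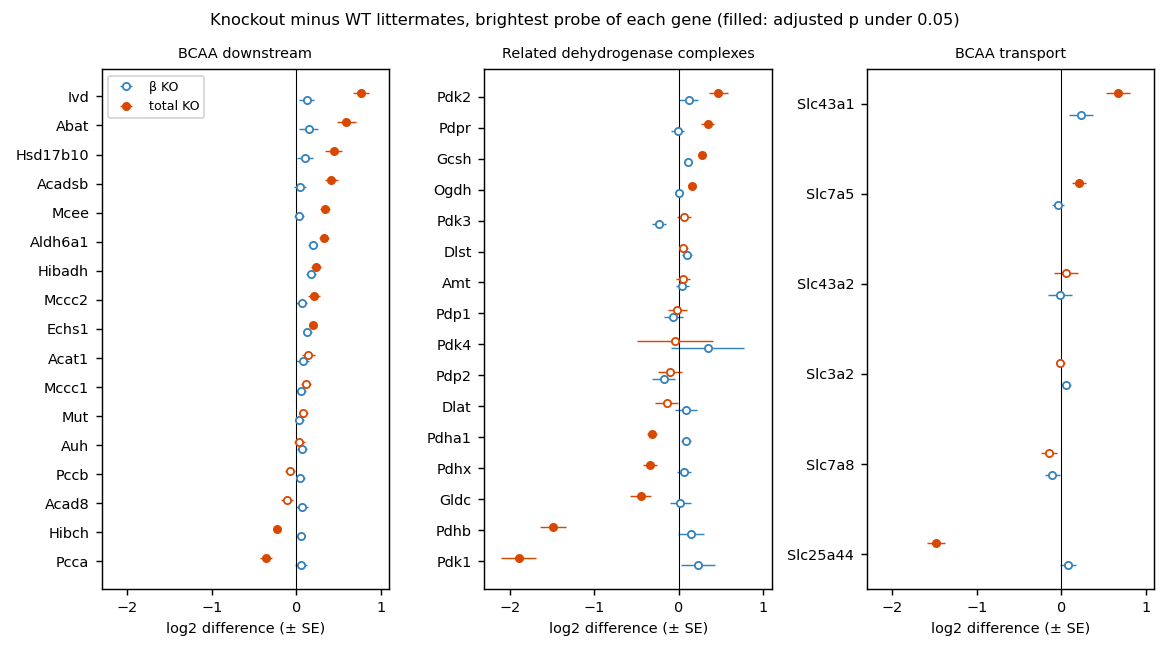
Log2 difference from WT littermates ± SE (x axis) of the brightest probe of each gene (y axis) in total ChREBP-KO and ChREBPβ KO livers, for genes after BCKDH (1 of them not shown), related dehydrogenase complexes and transporters. Filled points had an adjusted p under 0.05. Pdk1 (−1.90), Pdhb (−1.49) and Slc25a44 (−1.49) stand apart on the low side, and no ChREBPβ point is filled.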

How the data were processed

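Liver RNA of 31 mice was hybridised to Agilent SurePrint G3 Mouse GE v2 one-color arrays, 1 array per mouse. The authors deposited Feature Extraction 10.10.1.1 files with the intensity of each spot and quality flags, and a table of normalised log2 values that, per the labels and Methods, was made from median intensities with spot weights, quantile normalization and limma. Here the median signals were log2-transformed without background subtraction, so low signals understate changes. Spots passing the authors' flags on at least 26 arrays or 6 of a group were kept, quantile normalized and reduced to the median per probe name. These values differed from the deposited log2 table by −0.027 to 0.0302 (1st to 99th percentile). limma 3.58.1 in R 4.3.3 fitted all 4 groups together, with Benjamini-Hochberg adjustment over 36059 probes and a threshold of 0.05. The fit was tested on simulated data. p-values measure the spread between mice. Text values are log2 normalised signals and cannot be compared between genes.

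Groups came from the sample labels. Named genes were every probe of the 8 members, up to 4 called genes with the largest change per pathway list by brightest probe, the 5 genes most like Bckdk and Ppm1k, and Mlxipl. Hibch and Pcca were added after their values were seen. Members and lists were chosen with earlier results of these data known. Alternatives were other scalings, filters, background corrections, tests, blocks for slide (15 slides), scan day and replicate number, each scan day or line alone, and each array left out. Both scan days and 13 slides held several groups. Array positions are mm9, and promoters are RefSeq GRCm38.p6. Values of 1 pathway gene and 1 similar gene, and 1 probe sequence, are not reported here.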

Additional observations from a re-analysis of the deposited data

Results flagged for a closer look

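The knockout effects differed between the lines, by the interaction term of the limma fit, for several probes named above. The total effect minus the ChREBPβ effect was 1.66 for Ppm1k A_51_P265219, 0.78 for Ppm1k A_66_P133398, 0.56 for Dbt and −0.50 for Bckdk. Among genes after BCKDH it was 0.64 for Ivd (adjusted p = 0.0007981) and 0.37 for Acadsb (adjusted p = 0.01586). Larger values stood for Pdk1 (−2.12, adjusted p = 3.692e-06), Pdhb (−1.64, adjusted p = 3.048e-06) and Slc25a44 (−1.56, adjusted p = 5.031e-09). Each of these terms also holds any difference between the WT groups, which for Ppm1k A_51_P265219 was −1.15 on the log2 scale.

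Single mice stood apart from their group for 3 of the 44 combinations of probe and group, where chance flags about 1 in 20. The gap to the nearest mouse, as a share of the whole range of the group, was 0.552 for Bcat2 A_52_P393781 in ChREBPβ KO replicate 3 (6.34, the others 5.93 to 6.12), 0.611 for Bckdhb A_55_P2115235 in total-line WT replicate 5 (13.56, the others 13.79 to 13.94) and 0.572 for Ppm1k A_66_P133398 in total ChREBP-KO replicate 7 (6.34, the others 5.71 to 5.98). Without WT replicate 5 the Bckdhb difference was 0.17 (adjusted p = 0.03969). Without KO replicate 7 the Ppm1k difference was 0.75 (adjusted p = 3.849e-05).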

How the results depend on the processing

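Bckdk, Ppm1k A_51_P265219, Ppm1k A_66_P133398 and Dbt kept their direction and call in the total line under all alternatives that gave a value and kept the control mice, except that Bckdk missed a 1.5-fold minimum. Ppm1k A_51_P265219 ranged from 1.46 to 1.75, Bckdk from −0.67 to −0.51 and Dbt from 0.51 to 0.73. A filter on all arrays removed Bckdk, A_66_P133398 and Bcat2 A_55_P1960167, leaving 0 probes called lower and 2 for the difference between lines. With a 1.5-fold minimum 3 probes were called higher, 0 lower, 2 between lines and 1 between WT groups, with 3 genes after BCKDH, 2 of related complexes and 2 transporters. Scan day 1 alone called 3 higher and 1 between lines, with 5 genes of related complexes and 2 transporters. Scan day 2 alone called 1 between WT groups, with 9, 4 and 2 genes of the lists. On scan day 1 alone the difference between lines lost its call for Ppm1k A_51_P265219 (adjusted p = 0.09212), A_66_P133398 (0.1708) and Dbt (0.4639), and on scan day 2 for Bckdk (0.1179). The exact Mann-Whitney test called 3 higher and 2 transporters. No filter, and each line fitted alone, called 2 transporters. Slide as a fixed block called 1 between WT groups. With comparisons added after the data were seen, 1 probe was called higher against the ChREBPβ-line WT mice and 3 against both WT groups, and 5 differed between WT groups without the 6 arrays with other-tissue markers. The shares of all probes or gene names called under each setting were not counted. Counts in this section therefore cannot be set beside them.

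Leaving out each array gave 4 to 6 probes higher, 1 lower, 4 between lines, 12 to 14 genes after BCKDH, 10 to 11 of related complexes, 2 to 4 transporters (2 without total ChREBP-KO replicate 4 or WT replicate 3) and 2 to 5 probes between WT groups (5 without total-line WT replicate 2). Bckdhb A_55_P2115235 lost its call between WT groups in 22 of 31 such fits.

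Values near 0 changed sign. In the ChREBPβ line Dld was −0.015 with processed signals, −0.013 with median signals scaled to the 75th percentile, −0.025 with the slide block and −0.016 on scan day 2. Ppm1k A_55_P1968606 was −0.012 with processed signals and −0.007 with normexp. On scan day 1 Bckdhb A_51_P102782 was −0.015, Ppm1k A_51_P265219 0.24 and Bcat2 A_52_P393781 0.056. On scan day 2 Dbt was −0.058 and Ppm1k A_66_P133398 −0.15. Over single arrays left out, ranges were −0.012 to 0.053 for Bckdhb A_51_P102782, −0.015 to 0.022 for Dld, −0.25 to 0.061 for Ppm1k A_51_P265219, −0.013 to 0.086 for Dbt, −0.004 to 0.015 for A_55_P1968606 and −0.030 to 0.087 for A_66_P133398. Between WT groups Bcat2 A_52_P393781 was −0.018 with processed signals and −0.012 without the 6 arrays (single arrays left out, −0.013 to 0.063), Ppm1k A_55_P1968606 0.076 and 0.080 with the scalings, and Bckdk −0.065 on scan day 2. The cause was not tested.

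Replicate numbers were not taken as pairs, since the labels give them no shared source and not every pair correlated over 0.1. Same-numbered KO and WT mice did so in 6 of 8 pairs of the ChREBPβ line (r up to 0.533) and 2 of 7 of the total line, and were best matched to their own number in 4 and 1. For the ChREBPβ line this is a hint of pairing from the data, not the design. In both lines all same-numbered mice except replicate 5 shared a scan day. Scan day was not removed before these correlations, and its part in them was not tested. With the replicate number as a block, 5 probes were called higher and 1 lower, Bckdha losing its call (0.24, adjusted p = 0.0515), and Dbt gained a call between WT groups (−0.25, adjusted p = 0.009905). Depth has no counterpart on arrays. The number of mice and the signal over background limit the dim probes.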
